A study of Mus musculus with 4 samples.

Results

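The expression of 10 genes of insulin and insulin-like growth factor (IGF) signalling was followed in single cells of the mouse gonad and mesonephros, out of 21495 genes counted. The members were set by their function, by a rule that uses no measured value, although earlier results of these data were known when the set was drawn up. It holds the ligand Igf1, the receptors Igf1r, Insr and Igf2r, the receptor substrates Irs1 and Irs2, and the binding proteins Igfbp2, Igfbp3, Igfbp4 and Igfbp5. For each gene, unique molecular identifiers (UMIs, 1 per captured RNA molecule) were summed over the cells of a type in a sample and divided by the UMIs of all genes in those cells. The quotient was put on the CPM scale, on which the values of all genes in each such sum add up to the same total. Droplet-based 3′ RNA-seq had been performed on 4 pools of embryonic gonads, each with the mesonephros attached, and 52745 cells were deposited with their cell type.

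Each pool was 1 genotype, sex and stage. The XY control at E11.5 was derived from the unedited G4 embryonic stem cell line, an XY line of C57BL/6J and 129 background, by aggregation with tetraploid host embryos (tetraploid complementation), so that the fetus stems from the cultured line. The XY KO embryos of E11.5 (E11.5 KO) and of E11.75 (E11.75 KO) were derived in the same way from G4 cells with a homozygous CRISPR deletion of the miR-17~92 cluster. The XX control at E11.5 carried no deletion and came from matings of C57BL/6J males with 129 females, so that it differs from the XY control in the way the embryos were made as well as in sex. The GEO labels give C57BL/6 x 129S4/SvJae as the strain of all samples. A pool combined the gonads of 3 to 4 embryos, and there is 1 pool per group, so no test between groups was possible. Intervals given here are 95% exact intervals for counting error only. They do not cover differences between embryos, stem cell clones or preparations. No XY control of E11.75 was analysed here, and in the E11.75 comparison the deletion, the stage and the library cannot be told apart.

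IGF1, IGF2 and insulin are secreted or circulating ligands that bind the receptor tyrosine kinases IGF1R and INSR, which phosphorylate IRS1 and IRS2 and so recruit PI3K and the AKT and mTOR arms of the pathway. IGF2R has no kinase and takes IGF2 to lysosomes, whereas the IGF-binding proteins hold IGFs outside the cell and can limit or prolong their action. In the XY gonad, insulin and IGF receptors are needed for the rise of Sry and Sox9 and for testis fate, and in bipotential gonads the pathway is known for its part in proliferation of somatic progenitors.

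The deleted cluster encodes 6 mature microRNAs of 4 seed families, which are shown because all sites described here are defined by their seeds. The sequences are from RefSeq (GRCm38.p6, chromosome 14, plus strand), with bases 2 to 8, the seed, in capitals.
miR-17-5p: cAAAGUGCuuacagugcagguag
miR-20a-5p: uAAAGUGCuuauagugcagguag
miR-18a-5p: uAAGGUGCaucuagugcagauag
miR-19a-3p: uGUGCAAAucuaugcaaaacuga
miR-19b-3p: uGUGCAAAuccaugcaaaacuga
miR-92a-3p: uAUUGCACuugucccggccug
miR-17-5p and miR-20a-5p share a seed, as do miR-19a-3p and miR-19b-3p, so that the cluster acts through 4 different seeds.

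The longest annotated 3′ UTR of each gene was searched on its sense strand for 8mer sites, which pair with bases 2 to 8 and carry an A opposite base 1. Of the 10 genes, 4 held an 8mer, and each of these was a single site of the miR-19 family, TTTGCACA. Igf1, Igf2r, Igfbp3 and Igfbp4 are these genes. An 8mer of any of the 4 seeds was found in 12.7% of the 17348 genes with a 3′ UTR, and in 39.5%, 12%, 12% and 22.7% of those with a 3′ UTR of about the length of that of Igf1, Igf2r, Igfbp3 and Igfbp4 (within a ratio of 0.8). The sites are printed with flanking bases because they are the only 8mers in the set, with the 8mer in capitals.
Igf1 (chr10:87934006-87934013, plus strand): cctacatgtgcaTTTGCACAtgcgtg
Igf2r (chr17:12682766-12682773, minus strand): aagaagccttaaTTTGCACAgggtga
Igfbp3 (chr11:7207472-7207479, minus strand): aatatgccttatTTTGCACAaaagac
Igfbp4 (chr11:99052926-99052933, plus strand): cacagcctagagTTTGCACAggatga
All 4 lie in the 3′ UTR and coordinates are those of the 8 bases in GRCm38. For the miR-19 family alone, an 8mer was found in 5.8% of genes with a 3′ UTR, and in 17.4%, 5.8%, 5.5% and 11% at the 4 lengths. When sites of 7 bases were included, 8 of the 10 genes held a site, against 45.2% of genes with a 3′ UTR, and Irs1 and Igfbp2 held none. Among genes with a 3′ UTR of similar length this share was 94.8% for Igf1r, 93.4% for Igf1, 89.2% for Insr, 87.9% for Irs1, 87.3% for Igfbp5 and 12% for Igfbp2. For Igfbp4, Irs2, Igfbp3 and Igf2r it was 73.8%, 66.7%, 50.8% and 47.6%. A match describes these letters and does not show that the site is used.

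The genes differed in the length of their 3′ UTR, which matters most for one of the samples and changes some counts in the others. Igf1r, Igf1, Insr, Irs1 and Igfbp5 had 3′ UTRs of 7267, 6308, 4747, 4525 and 4445 bases, longer than those of at least 93.9% of genes, whereas the 3′ UTR of Igfbp2 had 312 bases. In pre-supporting cells of the E11.75 KO, the median log2 ratio over the XY control moved with 3′ UTR length across all genes, from -0.44 in the decile with the shortest 3′ UTRs to 0.27 in the decile with the longest. In the E11.5 KO these medians ran from 0.06 to -0.06 and in the XX control from 0.15 to -0.10. For pre-supporting cells, the ratios of the E11.75 KO over the XY control are therefore also given centred within the decile of 3′ UTR length.

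The samples held 23527 cells (XY control), 17057 (E11.5 KO), 8492 (E11.75 KO) and 3669 (XX control), with medians of 3893, 4763, 3922 and 15509 UMIs per cell. The study's methods attach the cell numbers of both KO samples to the opposite stages, and the stages given here are those of the GEO labels and of the deposited annotation. In another respect the methods and the labels match, since the only sample without a second technical replicate is the later KO in both. The technical replicates of a sample are called runs here. The annotation holds 24 Sertoli cells in the sample labelled E11.5 KO and 168 in the sample labelled E11.75 KO. The deposited annotation gave 13 cell types. Cells annotated as bipotential progenitors are called pre-supporting cells here, those annotated as supporting cells are called Sertoli cells, and the gonadal epithelial cells are called coelomic epithelium. In 9 of the 12 marker lists, every marker had its own type among the 3 types with the highest level, and in the coelomic epithelium, adrenal cortex and supporting-like lists all but 1 marker did (Msln, Cyp17a1 and Nr5a1, of which Msln and Cyp17a1 had a median of 0 CPM in their own type). Only 1 of the 5 pre-supporting markers (Runx1) and 1 of the 4 coelomic epithelium markers (Lhx9) were highest in their own type. Nr5a1, Gata4 and Wt1 were highest in Sertoli cells and Wnt4 in supporting-like cells. Immune cells of the XY control were an exception in quality, with a median of 1488 UMIs per cell and a summed immune marker level of 1097 CPM, against 4493 CPM in the E11.5 KO and 4605 CPM in the XX control. Of 52400 distinct barcodes, 345 occurred in more than 1 library. Xist and Ddx3y matched the labelled sex of all 4 samples. Mir17hg, the host gene of the cluster, was counted at 19.8 CPM in the XY control and at 156 and 161 CPM in the KO samples, and as UMIs are summed over the whole host gene, this is no measure of the deleted bases.

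Igf1, the ligand of IGF1R, was expressed most by endothelial and supporting-like cells. Endothelial cells had 243, 189, 278 and 232 CPM of Igf1 in the XY control, E11.5 KO, E11.75 KO and XX control, respectively, the order used for all sets of 4 values below. Supporting-like cells had 147, 205, 137 and 188 CPM, a range that overlaps that of endothelial cells, whereas every other type had a median of at most 81.7 CPM. In the XY control, endothelial cells were 3.72% of cells and held 22.9% of all Igf1 UMIs. Germ cells (2.58 to 6.35 CPM) and mesonephric tubules (7.98 to 14.2 CPM) had the lowest medians. In Sertoli cells of the XY control Igf1 was at 14.9 CPM, below the 58.7 CPM of pre-supporting cells of the same sample. The centred log2 ratio was -1.95 (interval -2.37 to -1.58). In the E11.75 KO the gap was smaller, with 75.0 CPM in Sertoli cells and 117 CPM in pre-supporting cells. The centred log2 ratio there was -0.66 (-1.03 to -0.32).

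**Figure D1:**
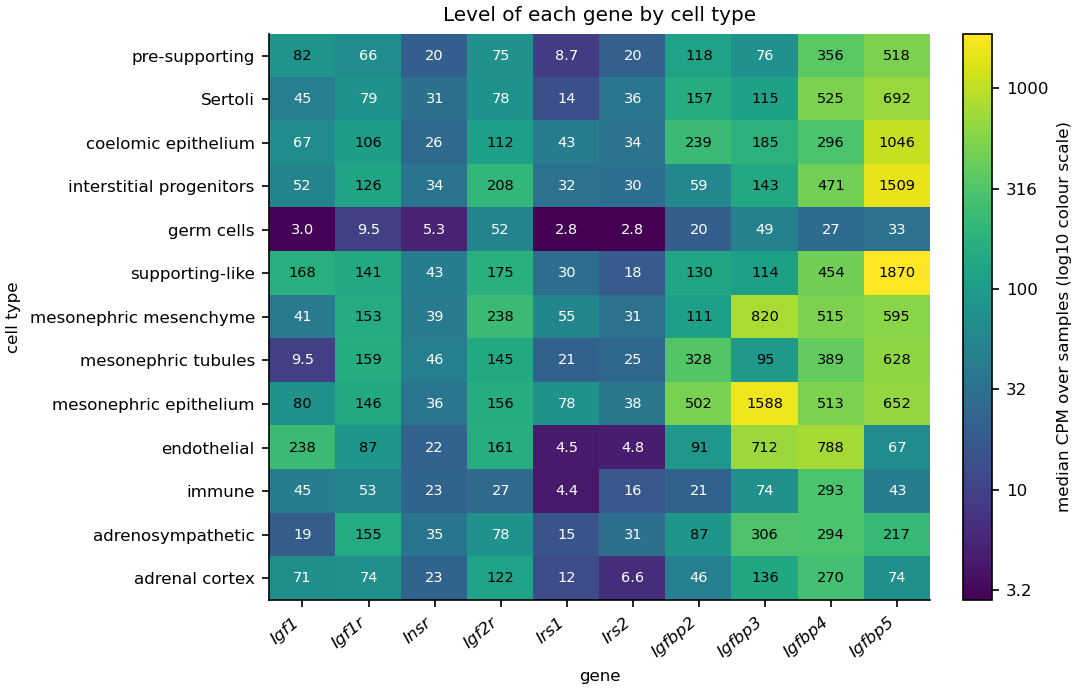
Median CPM over samples of the 10 genes (columns) in the 13 deposited cell types (rows), from samples with at least 50 cells of the type, on a log10 colour scale with the value printed in each field. Igf1 is highest in endothelial cells (238 CPM) and Igfbp3 in mesonephric epithelium (1588 CPM), and the germ cell row is low for nearly all genes.

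Pre-supporting cells, the bipotential precursors of Sertoli and granulosa cells, had 58.7, 89.7, 117 and 73.7 CPM of Igf1. The XY control was the lowest of the 4 samples and both KO samples were above both controls. The summed level of the 6 Sertoli markers in these cells, all above 0, was highest in the XY control, with 275, 47.8, 120 and 47.6 CPM, and its part in the Igf1 values was not tested. The coelomic epithelium, mesonephric mesenchyme and interstitial progenitor markers, given with Igfbp2 below, were higher in both KO samples than in both controls. Their part in the Igf1 values was not tested either. Ratios are given as log2 ratios over the XY control, centred so that the median gene is 0 (among genes with 100 UMIs or more in both samples together), and a gene is counted as past the fold when it differs by at least 1.5-fold. Before centring, the median gene of pre-supporting cells was at -0.09 in the E11.5 KO, 0.19 in the E11.75 KO and -0.11 in the XX control. Igf1 was higher by 0.70 in the E11.5 KO (0.52 to 0.89), by 0.81 in the E11.75 KO (0.63 to 0.99) and by 0.43 in the XX control (0.25 to 0.62). Within the decile of 3′ UTR length the E11.75 value was 0.54 (0.36 to 0.72), under the fold. From run 1 alone the E11.5 value was 0.53, under the fold too. After thinning each cell to 3000 UMIs, 15.1% of pre-supporting cells had an Igf1 UMI in the XY control, 21.3% in the E11.5 KO, 27.2% in the E11.75 KO and 20.9% in the XX control, against 0% to 2.38% of germ cells. Germ cells, whose levels were low for most of these genes, were deeper, with medians of 11990.5, 12156, 9279.5 and 40644 UMIs before thinning, against 4522, 5349, 4661 and 17498.5 UMIs in pre-supporting cells. Germ cell shares are given for comparison, and how far they reflect RNA from other cells was not tested. Without thinning the Igf1 shares of pre-supporting cells were 21.5%, 33.8%, 38.9% and 56.8%.

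**Figure D2:**
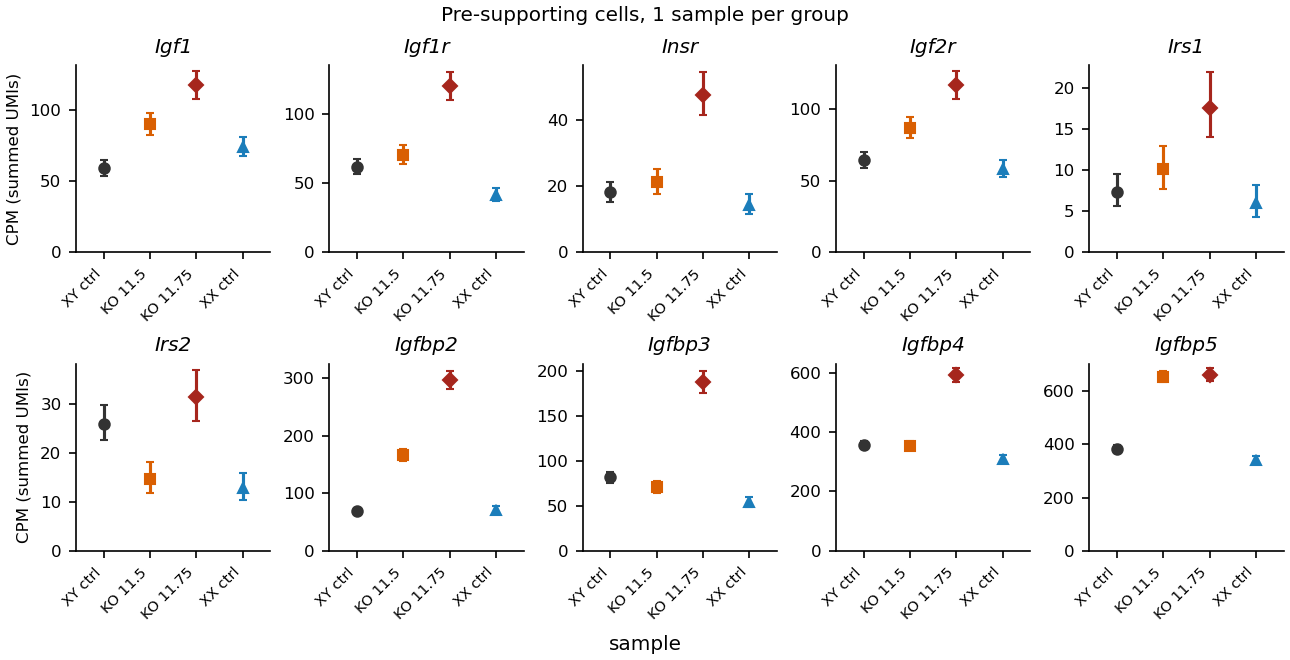
CPM of each gene in pre-supporting cells, 1 panel per gene with its own axis from 0 and 1 point per sample, with 95% Poisson intervals as bars. For Igfbp2 the values are 68.7, 166, 297 and 70.8 CPM, and the 2 controls overlap in their intervals whereas the KO samples lie apart.

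The direction of Igf1 in the KO samples depended on the cell type. Mesonephric mesenchyme, the most abundant type, had 49.7, 86.5, 31.2 and 32.7 CPM of Igf1, so that the E11.5 KO was the highest sample, and the E11.75 KO was next to the XX control at the low end. The centred log2 ratios were 0.89 in the E11.5 KO and -0.82 in the E11.75 KO. In mesonephric epithelium, with 69.2, 146, 51.8 and 91.3 CPM, the KO samples were again the highest and the lowest, and the XX control was above the XY control, whereas interstitial progenitors had 45.5, 59.4, 104 and 20.0 CPM and coelomic epithelium had 43.0, 74.7, 78.8 and 59.7 CPM. Among types with at least 100 Igf1 UMIs over both samples, Igf1 was past the fold and higher in 4 of 9 types in the E11.5 KO and lower in none, and in the E11.75 KO it was higher in 4 of 9 and lower in 2. Within the deciles of 3′ UTR length, the E11.5 counts were 6 higher and 0 lower. The E11.75 counts became 2 higher and 3 lower. Over the cell types, 1.73% to 12.6% of all genes were past the fold and higher in the E11.5 KO and 5.03% to 12.5% in the E11.75 KO, and 2.05% to 12% and 9.32% to 15.7% were lower, which is the background for this and the later counts of types.

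Mesonephric mesenchyme is made up of 4 deposited clusters, and Igf1 was compared within each of them after the values of the whole type had been seen. In cluster 3 Igf1 stood at 69.8 CPM in the XY control, 170 CPM in the E11.5 KO, 31.4 CPM in the E11.75 KO and 27.7 CPM in the XX control. In cluster 2 the values were 43.9, 72.1, 32.1 and 28.7 CPM. Cluster 1 differed, with 49.7, 31.3, 32 and 49.5 CPM, since the E11.5 KO was below the XY control there and the XX control was close to it (0.11, -0.08 to 0.30). The share of mesonephric mesenchyme that belonged to cluster 3 was 24.1% in the XY control, 31.8% in the E11.5 KO and 17.4% in the E11.75 KO, and that of cluster 1 was 38.9%, 27.1% and 49.2%. Igf1 was lower in the E11.75 KO than in the XY control in clusters 1, 2 and 3, with centred log2 ratios of -0.77, -0.59 and -1.29.

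**Figure D3:**
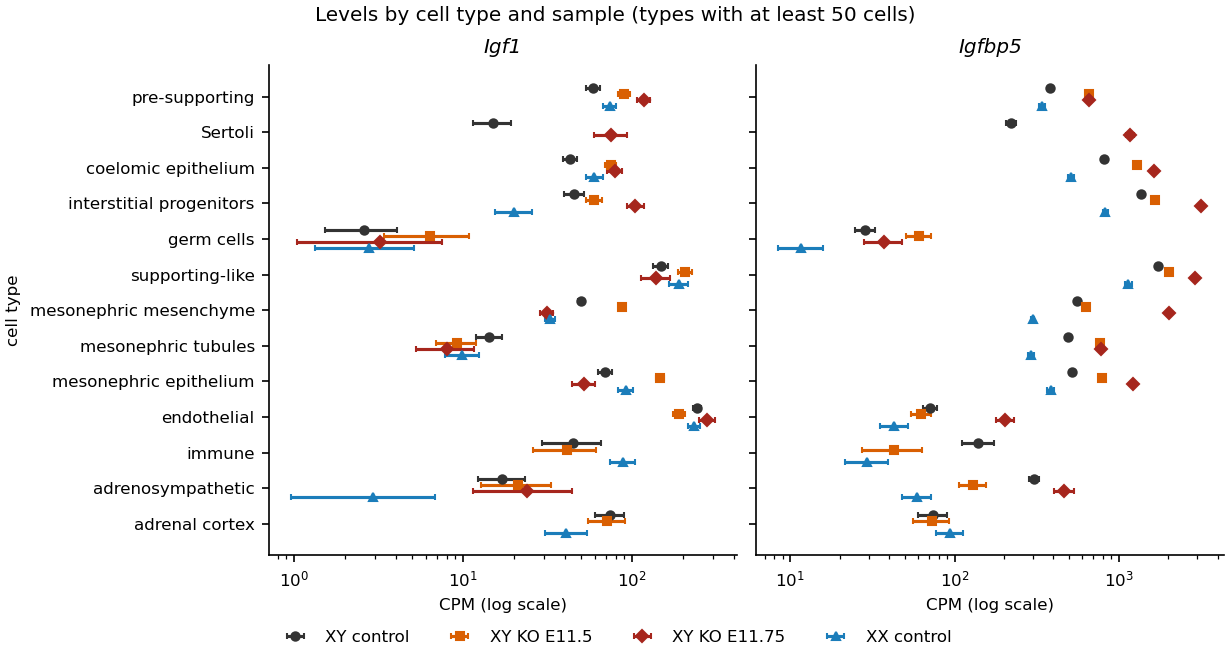
CPM of Igf1 (left) and Igfbp5 (right) on log axes for each cell type (rows) and sample (symbols), with 95% Poisson intervals, for types with at least 50 cells in the sample. In mesonephric mesenchyme the Igf1 value of the E11.75 KO (31.2 CPM) lies below that of the E11.5 KO (86.5 CPM), and its Igfbp5 value (2009 CPM) lies above those of all other samples.

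Igf2, the other IGF ligand, was counted at 34.2, 56.2, 61.9 and 41.1 CPM in pre-supporting cells and was past the fold in both KO samples (0.81 and 0.67 on the log2 scale). Within its decile of 3′ UTR length the E11.75 value was 0.48, under the fold. Its exons overlap those of Gm49394 on the same strand, so its counts are uncertain. The part of the coelomic epithelium, mesonephric mesenchyme and interstitial progenitor markers, higher in both KO samples too, was not tested. Ins2, an insulin gene, had 0 UMIs in pre-supporting cells of all samples, which allows levels of up to 0.381 to 0.654 CPM (3 UMIs, a one-sided limit), and germ cells held 23 of its 25 UMIs in the XY control and 19 of 22 in the XX control.

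Igf1r, the receptor of IGF1, was found in every type and was lowest in germ cells (7.33 to 25 CPM). Its highest medians were in mesonephric tubules, adrenosympathetic cells and mesonephric mesenchyme (159, 155 and 153 CPM), whose ranges over samples overlap. Pre-supporting cells had 61.8, 70.7, 120 and 41.4 CPM, the lowest median of the somatic types other than immune cells. The XX control was the lowest sample and the E11.75 KO the highest. The mesonephric mesenchyme markers given with Igfbp2 below had the same order over samples, and their part in the Igf1r values was not tested. Over the XY control Igf1r was at 0.29 (0.10 to 0.48) in the E11.5 KO, 0.78 (0.60 to 0.96) in the E11.75 KO and -0.47 (-0.69 to -0.25) in the XX control. Within its decile of 3′ UTR length the E11.75 value fell to 0.51, under the fold. Over the types tested in the E11.75 KO, Igf1r was past the fold and higher in 10 of 11, or 6 of 11 with the deciles. With the deciles, 5.69% (mesonephric tubules) to 10.7% (Sertoli cells) of all genes were past the fold and higher in this comparison. The types come from 1 pool and are not replicates. In the E11.5 KO Igf1r was past the fold in 0 of 10.

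Insr, the insulin receptor, had a profile over cell types close to that of Igf1r. Over the 48 sums of a type and sample with at least 50 cells, the Pearson correlation of log2(CPM + 1) between Insr and Igf1r was 0.94, the highest for Insr among 11857 genes, as a description in which sums share samples, depth and the length effect of the E11.75 KO. Pre-supporting cells had 18.0, 21.1, 47.5 and 14.3 CPM of Insr, and the E11.75 KO stood apart from the other 3 samples. The order of the samples was again that of the mesonephric mesenchyme markers, whose part in the Insr values was not tested. The log2 ratio was 0.32 in the E11.5 KO (-0.04 to 0.67), 1.21 in the E11.75 KO (0.90 to 1.53) and -0.22 in the XX control (-0.61 to 0.16). With the deciles of 3′ UTR length the E11.75 value was 0.94 (0.63 to 1.26), still past the fold. After thinning, 5.52% of pre-supporting cells had an Insr UMI in the XY control, 6.21% in the E11.5 KO, 14.0% in the E11.75 KO and 4.58% in the XX control. Over the types tested Insr was higher past the fold in 8 of 10 at E11.75, and in 0 of 9 in the E11.5 KO.

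Igf2r, the scavenger of IGF2, was highest in mesonephric mesenchyme in all samples but the XX control, with 200, 276, 323 and 155 CPM. In the XX control interstitial progenitors were the highest type (195 CPM). Pre-supporting cells had 64.1, 86.7, 117 and 58.2 CPM, with both KO samples above both controls. The same held for the coelomic epithelium, mesonephric mesenchyme and interstitial progenitor markers given with Igfbp2 below, whose part in the Igf2r values was not tested. The ratios were 0.53 in the E11.5 KO (0.35 to 0.71), 0.68 in the E11.75 KO (0.50 to 0.86) and -0.03 in the XX control (-0.22 to 0.16). Its 3′ UTR of 1304 bases is near the middle of all genes, and the E11.75 value was 0.67 within its decile. The interval lay above 0 in 10 of 11 tested types in the E11.5 KO and in 10 of 11 in the E11.75 KO. Only 1 and 4 of these were past the fold, and the types of a pool are not replicates. Over the types, the interval lay above 0 for 7.67% to 27.2% of all genes in the E11.5 KO and for 14.4% to 32.3% in the E11.75 KO. After thinning, 16.7%, 22.1%, 28.3% and 16.3% of pre-supporting cells had an Igf2r UMI, against 10.4%, 21.5%, 20.5% and 3.57% of germ cells, so that in the E11.5 KO the shares were close.

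The substrates that pass the receptor signal on were sparse in pre-supporting cells. Irs1 had 7.36, 10.1, 17.6 and 6.05 CPM there, from only 58, 61, 81 and 41 UMIs. In the same samples the coelomic epithelium, from which pre-supporting cells derive, had 48.4, 37.6, 60.5 and 29.2 CPM, so that Irs1 was at a lower level in pre-supporting cells in every sample. The centred log2 ratio of coelomic epithelium over pre-supporting cells was 2.63, 1.82, 1.75 and 2.19, the highest value of any of the 10 genes in each sample. Mesonephric epithelium was the type with the highest Irs1 level in all 4 samples (51.1 to 111 CPM). In pre-supporting cells Irs1 was at 0.55 in the E11.5 KO (0.01 to 1.10). In the E11.75 KO it was at 1.07 (0.57 to 1.59), or 0.80 within its decile of 3′ UTR length. It fell short of 100 UMIs in the XX comparison. Its order over the samples was that of the mesonephric mesenchyme markers given with Igfbp2 below. The part of these and of the coelomic epithelium and interstitial progenitor markers in the Irs1 values was not tested.

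In pre-supporting cells, Irs2 was the only one of the 10 genes past the fold in the lower direction in any comparison with the XY control. It had 26.0, 14.8, 31.4 and 12.8 CPM, from 205, 89, 144 and 87 UMIs, so that the E11.5 KO and the XX control were near each other and the XY control and the E11.75 KO were above them. The ratio was -0.72 in the E11.5 KO (-1.10 to -0.36), 0.09 in the E11.75 KO (-0.23 to 0.40; -0.06 within its decile) and -0.91 in the XX control (-1.29 to -0.54). The E11.5 value was -0.35 from run 1 alone and -0.53 in cells with at least 5000 UMIs, both under the fold. In Sertoli cells of the XY control Irs2 was at 40.0 CPM, above the pre-supporting cells of that sample by 0.63 (0.33 to 0.94), and in those of the E11.75 KO it was at 32.1 CPM, with a difference of 0.02 (-0.59 to 0.56). The summed level of the Sertoli markers in pre-supporting cells, given with Igf1, was like Irs2 lower in the E11.5 KO and the XX control than in the XY control, but was below the XY control in the E11.75 KO too, where Irs2 was highest, and its part in the result was not tested.

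Igfbp2 showed the largest ratios of the set in pre-supporting cells. It was at 68.7 CPM (63.1 to 74.8) in the XY control, at 166 CPM (156 to 177) in the E11.5 KO, at 297 CPM in the E11.75 KO (281 to 313) and 70.8 CPM in the XX control (64.6 to 77.4). The 2 controls overlapped and both KO samples were above them. The centred ratio was 1.37 in the E11.5 KO (1.21 to 1.52), a 2.58-fold difference, and 1.93 in the E11.75 KO (1.78 to 2.07), a 3.80-fold difference, and 2.23 within the decile of its short 3′ UTR. In the XX control it was 0.15 (-0.03 to 0.33). Igfbp2 stayed past 2-fold in both KO samples under every alternative tried, with ranges of 1.12 to 1.47 and 1.62 to 2.23. After thinning, the share of pre-supporting cells with an Igfbp2 UMI was 15.6%, 33.2%, 49.3% and 15.8%, against 4.32%, 5.70%, 6.62% and 8.33% of germ cells.

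In the other types with at least 100 UMIs the Igfbp2 ratios were smaller. Supporting-like cells had 85.5, 174, 215 and 79.9 CPM, with ratios of 1.11 and 1.22 in the KO samples, and mesonephric mesenchyme had ratios of 0.86 and 0.49. Coelomic epithelium had 224, 245, 382 and 233 CPM, with ratios of 0.23 and 0.63, and mesonephric tubules had -0.38 and 0.26. As a result the level in coelomic epithelium was above that in pre-supporting cells by 1.63 and 1.64 on the log2 scale in the XY and XX controls and by 0.50 and 0.35 in the KO samples. Markers of 3 other types were higher in both KO samples than in both controls in pre-supporting cells, as Igfbp2 was. The summed level of the 4 coelomic epithelium markers, 3 of which were above 0, was 272, 356, 430 and 272 CPM, that of the 4 mesonephric mesenchyme markers, all above 0, was 58.6, 94.7, 117 and 46.9 CPM, and that of the 5 interstitial progenitor markers, all above 0, was 269, 308, 400.5 and 284 CPM. Pdgfra belongs to both the mesonephric mesenchyme and the interstitial progenitor list, so these sums are not independent. Of the coelomic epithelium markers, Upk3b and Krt19 were highest in mesonephric epithelium. The part of the cells named by these lists in the Igfbp2 result was not tested.

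**Figure D4:**
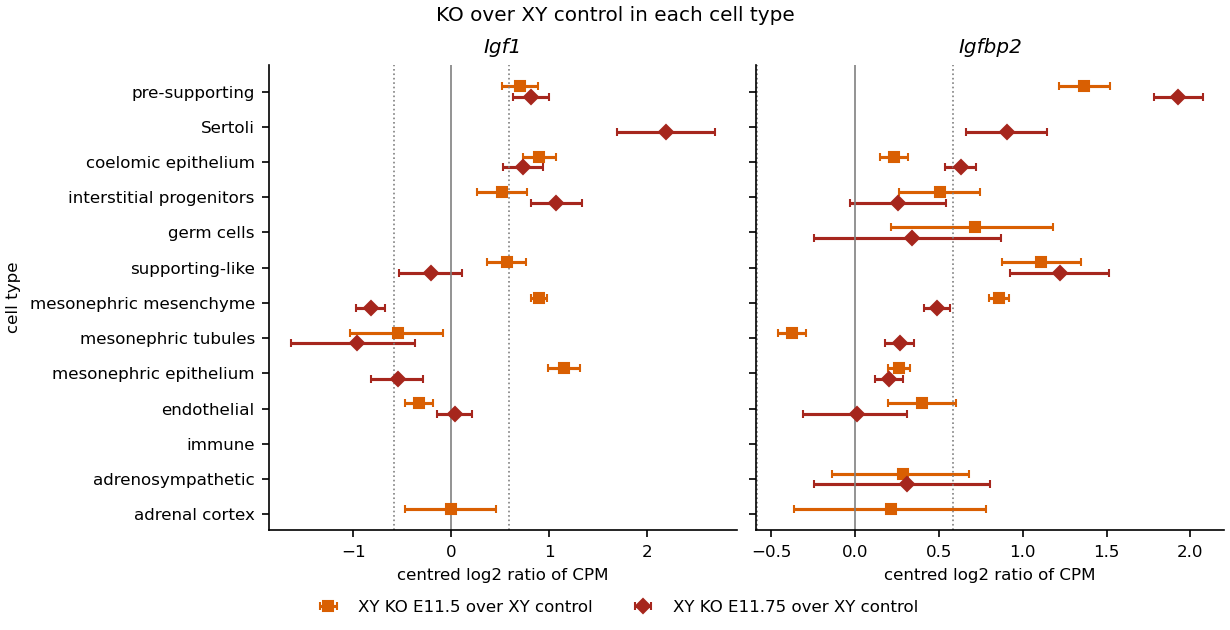
Centred log2 ratios of Igf1 (left) and Igfbp2 (right) over the XY control in each cell type with at least 100 UMIs over both samples, for the E11.5 KO (squares) and the E11.75 KO (diamonds), with 95% intervals and dotted lines at 1.5-fold. Igf1 of the E11.75 KO is on opposite sides of 0 in pre-supporting cells (0.81) and mesonephric mesenchyme (-0.82), and Igfbp2 reaches 1.93 in pre-supporting cells.

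Igfbp5, which binds IGFs at the extracellular matrix, was highest in supporting-like cells in all samples but the E11.75 KO, with 1720.0, 2021, 2898 and 1142 CPM. Interstitial progenitors had 1363, 1656, 3162 and 829 CPM and were the highest type in the E11.75 KO, and germ and immune cells were lowest. Pre-supporting cells had 382, 654, 662 and 342 CPM, and both KO samples were above both controls, as were the coelomic epithelium, mesonephric mesenchyme and interstitial progenitor markers given with Igfbp2, whose part in the Igfbp5 values was not tested. The ratio was 0.87 in the E11.5 KO (0.80 to 0.94), 0.61 in the E11.75 KO (0.53 to 0.68) and -0.05 in the XX control (-0.13 to 0.03). Within the decile of 3′ UTR length the E11.75 value was 0.34 (0.26 to 0.41), under the fold. Mesonephric mesenchyme differed between the KO samples, with 559, 631, 2009 and 298 CPM and ratios of 0.27 and 1.70. The ratio of 1.70 remained at 1.46 with the deciles. In the same cells most marker lists, all but those of germ cells, immune cells and fetal adrenal cortex, were highest in the E11.75 KO too. The summed level was 1209, 1121, 2188 and 1186 CPM for the 5 interstitial progenitor markers, 345, 331, 564 and 262 CPM for the 3 supporting-like markers and 61.9, 51.2, 102 and 36.6 CPM for the 4 endothelial markers. The 4 markers of mesonephric mesenchyme itself were at 276, 305, 498 and 224 CPM. All markers of the lists whose levels are printed here were above 0, and the part of the marker lists in the result was not tested.

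In Sertoli cells Igfbp5 separated the 2 samples that had at least 50 of them. It was at 221 CPM in 752 cells of the XY control and at 1163 CPM in 168 cells of the E11.75 KO, a centred ratio of 2.25 (2.01 within the decile). In the XY control Sertoli cells had less Igfbp5 than pre-supporting cells, with a centred log2 ratio of -0.78 (-0.89 to -0.67), and in the E11.75 KO they had more, with a ratio of 0.79 (0.69 to 0.88). Of the 9 genes of the set with at least 100 UMIs in this comparison of Sertoli cells, 7 were past the fold and higher in the E11.75 KO and 0 were lower, against 12.5% and 14.5% of all genes tested. Within the deciles of 3′ UTR length 6 were higher and 0 lower, against 10.7% and 12.6%. The summed Sertoli markers in these cells were 1840.1 CPM in the XY control and 1186 CPM in the E11.75 KO, so the cells under this name differ in their markers too.

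Igfbp3, the main carrier of IGFs in blood, was highest in mesonephric epithelium, with 1542, 1634, 2602 and 919 CPM, followed by mesonephric mesenchyme and endothelial cells. Endothelial cells had 393, 1112, 1031 and 277 CPM, so that both KO samples were above both controls, with ratios of 1.53 (1.46 to 1.61) in the E11.5 KO and 1.23 in the E11.75 KO. In pre-supporting cells the level was low, at 81.6, 71.0, 188 and 54.3 CPM. The ratio was -0.11 in the E11.5 KO (-0.29 to 0.07), 1.02 in the E11.75 KO (0.87 to 1.17), or 0.95 within its decile, and -0.48 in the XX control (-0.67 to -0.29). The 2 runs of the E11.5 KO differed by 0.69 for this gene (0.40 to 0.99), more than the KO sample differed from the control. Germ cells had 42.6, 54.7, 95 and 15.2 CPM of Igfbp3, and after thinning 10.4%, 12%, 23.8% and 4.76% of germ cells had a UMI against 15.9%, 15.9%, 30.9% and 7.16% of pre-supporting cells. The share in germ cells was thus the lower one in each sample, but closer to that in pre-supporting cells than for Igf1, Igfbp2 or Igfbp4.

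Igfbp4, a binding protein that is cleaved by the protease PAPP-A, was found in all types. Endothelial cells had the highest level in all 4 samples (561 to 986 CPM), and germ cells the lowest (24.9 to 35.9 CPM), while the medians of the other types lay between 269.6 and 525 CPM. Pre-supporting cells had 358, 354, 592 and 309 CPM. The E11.5 KO and the XY control overlapped, with a ratio of 0.08 (-0.003 to 0.16), whereas the E11.75 KO was at 0.54 (0.47 to 0.62), or 0.40 within its decile. After thinning, 56.3%, 60.8%, 77.4% and 53.6% of pre-supporting cells had an Igfbp4 UMI, against 4.76% to 11.3% of germ cells.

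Read as a set, 3 of the 10 genes (Igf1, Igfbp2 and Igfbp5) were past 1.5-fold and higher in pre-supporting cells of the E11.5 KO, where 4.13% of the 9725 genes tested were, and 1 (Irs2) was lower, where 5.6% were. The median centred log2 ratio of the set was 0.42, that of all genes being 0. Within the deciles of 3′ UTR length 4 were higher and 1 lower, against 3.96% and 5.38% of all genes so centred. In the E11.75 KO there were 8 of 10 higher and 0 lower, against 9.16% and 14% of 9742 genes, and the median was 0.79. All but Irs2 and Igfbp4 were among the 8. With the deciles of 3′ UTR length 5 of 10 remained past the fold, namely Insr, Igf2r, Irs1, Igfbp2 and Igfbp3, and 0 were lower, against 8.38% and 10% of all genes so centred. In the XX control 0 of 9 were higher and 1 was lower, against 2.91% and 5.17% of 9795 genes, and the median was -0.10. The genes are not replicates of one another. Between the 2 runs of the XY control 0 of 9 tested genes of the set differed by 1.5-fold, against 0.872% of all genes, and in the E11.5 KO 1 of 8 (Igfbp3) did, against 1.24%.

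**Figure D5:**
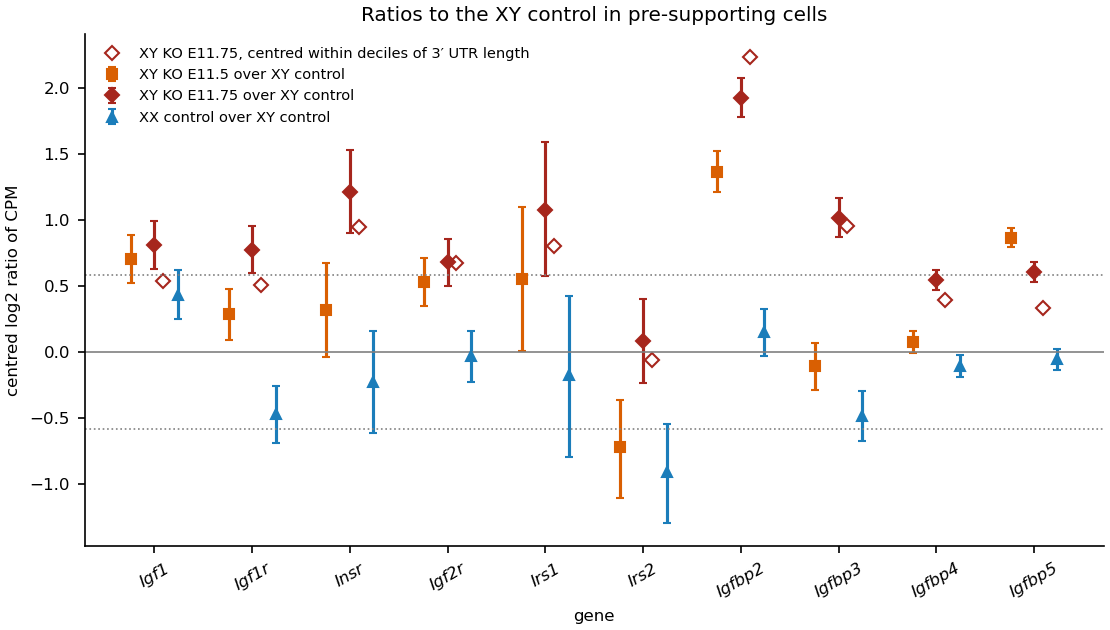
Centred log2 ratios of the 10 genes in pre-supporting cells over the XY control with 95% intervals, for the E11.5 KO (squares), the E11.75 KO (filled diamonds) and the XX control (triangles). Open diamonds give the E11.75 KO centred within deciles of 3′ UTR length and dotted lines mark 1.5-fold, and Igfbp2 is at 1.37 and 1.93 in the KO samples while Irs2 lies below the lower line in the E11.5 KO and the XX control.

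Between the KO samples themselves, the E11.75 KO over the E11.5 KO, Insr (0.89), Irs2 (0.80) and Igfbp3 (1.12) were past the fold and higher in pre-supporting cells and 0 genes of the set were lower, against 10.3% and 15.3% of all genes tested. Within the deciles of 3′ UTR length Irs2 (0.60), Igfbp2 (0.92) and Igfbp3 (1.02) were higher and Igfbp5 (-0.60) was lower, and Insr (0.55) was under the fold, against 8.64% of all genes higher and 9.93% lower. The intervals of Igf1 (0.10, -0.08 to 0.27) and Igf2r (0.14, -0.03 to 0.32) included 0. In the other gonadal types, the E11.5 KO gave these counts. Coelomic epithelium had 2 of 10 higher (Igf1 and Igfbp5) against 2.6% of all genes, interstitial progenitors 0 of 10 against 2.83%, supporting-like cells 3 of 9 (Igf2r, Igfbp2 and Igfbp3) against 2.65%, and germ cells 2 of 5 (Igfbp2 and Igfbp5) against 2.29%. In each of them 0 were lower, against 2.78%, 3.32%, 2.55% and 2.05% of all genes. Within the deciles of 3′ UTR length 2, 1, 4 and 2 were higher, against 2.6%, 2.74%, 2.58% and 2.24% of all genes. Again 0 were lower in each, against 2.64%, 3.13%, 2.41% and 2.04%. In the XX control, intervals over the XY control lay below 0 for 9 of 10 genes in mesonephric mesenchyme and 8 of 10 in mesonephric tubules, against 29.8% and 23.3% of all genes. The count was 7 of 10 in mesonephric epithelium, coelomic epithelium and interstitial progenitors alike, against 16.9%, 18.8% and 14.8% of all genes. In mesonephric mesenchyme and tubules only 2 and 4 of the 10 were lower past the fold, against 4.74% and 7.44%, and within the deciles of 3′ UTR length 1 was in each type, against 4.5% and 6.88%.

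Genes with a miR-19 8mer were set beside those without one. In pre-supporting cells of the E11.5 KO, Igf1 and Igf2r were at 0.70 and 0.53 and Igfbp3 and Igfbp4 at -0.11 and 0.08. The genes without an 8mer ranged from -0.72 (Irs2, the lowest of the set) to 1.37 (Igfbp2, the highest), and the ranges of the 2 groups overlap. In the E11.75 KO too Igfbp2 was the highest and Irs2 the lowest gene of the set. Genes without an 8mer are not all free of sites, since Igf1r, Insr, Irs2 and Igfbp5 held sites of 7 bases. Irs1 and Igfbp2 held no site. The part of the sites in the ratios was not tested. Among 8mer genes, the E11.5 KO interval lay above 0 in 6 of 9 types for Igf1 and 10 of 11 for Igf2r. It did so in 8 of 12 for Igfbp3 and 4 of 12 for Igfbp4. In the E11.75 KO these counts were 4 of 9, 10 of 11, 10 of 11 and 8 of 11 in that order. Without an 8mer, the E11.5 KO counts were 8 of 11 for Igfbp2, 8 of 12 for Igfbp5 and 0 of 9 for Insr. For Igf1r, Irs1 and Irs2 they were 2 of 10, 2 of 7 and 0 of 6. In the E11.75 KO they were 7 of 11 for Igfbp2, 10 of 11 for Igfbp5 and 9 of 10 for Insr. For Igf1r, Irs1 and Irs2 they were then 11 of 11, 5 of 7 and 4 of 7. The shares of all genes are those given with Igf2r.

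The other genes of the pathway were read from a list of 54 by role, of which 53 were in the count table, and Ins1 was not analysed here. In pre-supporting cells of the E11.5 KO, 42 were tested, of which 5 were higher and 5 lower past the fold, with a median of -0.02. For all genes the shares given above, 4.13% and 5.6%, are the background. In the E11.75 KO, 7 of 44 were higher and 4 lower, with a median of 0.14 (all genes 9.16% and 14%), or 2 higher and 4 lower with a median of 0.08 within the deciles of 3′ UTR length, and in the XX control 1 of 42 was higher and 2 lower (2.91% and 5.17%). Of the 10 genes of the AKT arm, 1 was higher and 2 were lower in the E11.5 KO and 0 in the E11.75 KO. Of the 10 genes of the mTOR arm, 1 and 2 were higher and 0 and 2 lower in the 2 KO samples, and within the deciles 0 were higher in the E11.75 KO. Insrr, an orphan receptor of the family, and Igfbp1, which was found mainly in mesonephric tubules (7.19 to 17 CPM), had at most 2 UMIs in pre-supporting cells of any sample.

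Of this list, the 3 genes with the highest and the 3 with the lowest mean ratio of the 2 KO samples, among those with the same sign in both, are named. Htra1, a secreted serine protease that cleaves binding proteins, had 17.8, 30.4, 37.9 and 13.4 CPM in pre-supporting cells, with ratios of 0.86 and 0.91 (1.07 within the decile). Its order over the samples, like that of Tsc1, was that of the mesonephric mesenchyme markers given with Igfbp2. The part of these markers in the Htra1 and Tsc1 values was not tested. Igf2 followed, as given above, and Tsc1, which restrains mTORC1, had 20.9, 23.7, 39.9 and 16.8 CPM and was past the fold only in the E11.75 KO (0.74, against 0.27 in the E11.5 KO), which became 0.48 within the decile, under the fold. Stc2, which encodes stanniocalcin 2, an inhibitor of PAPP-A, had 47.6, 28.0, 17 and 37.6 CPM, with ratios of -0.67 and -1.66 (-1.81 within the decile), the E11.75 value being the lowest of the named genes. Grb14, an adaptor that inhibits the insulin receptor, had 24.2, 12.8, 15.5 and 35.4 CPM and was at -0.83 in both KO samples (-0.52 at E11.75 within the decile, under the fold), while it was at 0.65 in the XX control. The 4 fetal adrenal cortex markers, all above 0, were likewise highest in the XX control and lower in both KO samples than in the XY control, with a summed level of 104, 37.2, 22.4 and 161 CPM in pre-supporting cells, and their part in the Grb14 values was not tested. Ptpn1, a phosphatase that removes phosphate from the insulin receptor, had 92.5, 55.1, 70.8 and 78.2 CPM, with a ratio of -0.65 in the E11.5 KO past the fold and of -0.57 in the E11.75 KO just under it (-0.72 within the decile, past it).

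The genes whose profile over the 48 sums was most like that of each member were found by the correlation used for Insr. Igfbp4 had the closest neighbours, Mbnl2 (Pearson r = 0.96) and Tbc1d9b (0.95). Igf1r was most like Trove2 and Vezf1 (both 0.95), Irs1 like Tenm3 and Fzd2 (both 0.93) and Igfbp5 like Tshz1 and Ext1 (both 0.93). Insr was followed by Wdr13 (0.93), Igf2r by Fstl1 (0.89) and Pcdhb20 (0.87), and Igfbp2 by Plxnb1 (0.89) and Lama5 (0.88). Irs2 was most like Plppr3 and Epb41 (both 0.88). Igf1 and Igfbp3 had the least close neighbours, Tnfrsf1a (0.82) and Tbc1d4 (0.81) for Igf1 and Thsd7a and Sept8 (both 0.82) for Igfbp3. Within the set, Irs1 and Irs2 followed each other (0.82), whereas Igf1 and Irs2 were nearly unrelated (0.09).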

How the data were processed

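Gonads with mesonephros had been profiled by droplet-based 3′ single-cell RNA-seq in 4 pooled samples. All but the E11.75 KO had 2 technical replicates, called runs here, whose cells carry largely different barcodes. The deposited values are raw UMI counts per gene and cell, which the authors made with Cell Ranger 6.1.1 and Seurat on mm10 (tools and build per the labels' processing notes). The authors had removed doublets with DoubletFinder, kept XY cells under 30000 UMIs and 7000 genes, and filtered XX cells by cluster. No further cell filter was used, and the deposited annotation gave the cell types. Cell types with under 50 cells in a sample were left out of that sample's comparisons.

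Counts were summed per cell type and sample. Levels are CPM with exact Poisson intervals, and log2 ratios use a prior count of 0.5, exact binomial intervals (95%) and centring on the median gene with at least 100 UMIs over both samples. With 1 sample per group no test was made, cells are not replicates, and intervals cover counting error only. Shares of cells were computed after thinning to 3000 UMIs, with shallower cells left out (173, 54, 93 and 3 pre-supporting cells in the order XY control, E11.5 KO, E11.75 KO and XX control). Sites were searched in GENCODE M21 annotation of GRCm38, in which 21207 of 21495 symbols were found. All 10 genes of the set and Igf2 are named, with the 3 highest and 3 lowest genes of a pathway list and, for each gene of the set, the 2 most alike genes with at least 1000 UMIs. The genes and lists were chosen with earlier results of these data known. Python 3.11.15, numpy 2.4.6, scipy 1.17.1, pandas 2.3.3, matplotlib 3.10.9, R 4.3.3 and edgeR 4.0.16 (TMM factors) were used, and the ratio calculation was tested on simulated data. Alternatives to scaling, centring, prior, depth, minimum count, fold, run and cell type were tried.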

Additional observations from a re-analysis of the deposited data

Results flagged for a closer look

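In 4 cases, a gene of the set was past 1.5-fold higher in one cell type and past 1.5-fold lower in another in the same comparison with the XY control. The highest and the lowest type of each are given. None of these differences was tested, since each sample is a single pool. Igfbp3 in the E11.5 KO over the XY control was at 1.53 in endothelial cells and at -3.50 in immune cells. Igfbp5 in the same comparison was at 1.10 in germ cells and at -1.70 in immune cells. In the XY control, immune cells had a median of 1488 UMIs against 7040.0 UMIs in the E11.5 KO, and the part of this in the Igfbp3 and Igfbp5 values was not tested. Igf1 in the E11.75 KO was at 2.18 in Sertoli cells and at -0.96 in mesonephric tubules. The summed Sertoli markers in Sertoli cells were 1840.1 CPM in the XY control and 1186 CPM in the E11.75 KO. The part of this in the Igf1 value was not tested. Igf1 in the XX control was at 0.99 in immune cells and at -1.06 in interstitial progenitors. Immune cells of the XX control had a median of 18870.5 UMIs, and the part of this difference from the XY control was not tested either.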

How the results depend on the processing

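No paired analysis was possible because each group is 1 pool, and no replicate could be left out for the same reason. In the E11.5 KO, the count of 4 genes past the fold in pre-supporting cells stayed within 3 to 5 under all alternatives except a 2-fold limit, which left 1 gene. In the E11.75 KO the 8 genes became 5 when centred within deciles of 3′ UTR length and 4 at 2-fold, and stayed within 7 to 9 otherwise. In the XX control the single gene became 2 without centring, with the mean CPM over cells, in cells with at least 5000 UMIs and with Sertoli cells joined, 3 from run 2 alone, and 0 with at least 500 UMIs or at 2-fold. Of the 30 ratios of the 10 genes in pre-supporting cells, 12 moved beyond their intervals with Sertoli cells joined, 11 with total counts and no centring, 7 when mitochondrial, globin and ribosomal protein genes and Gm42418 were left out of the totals, also without centring, 6 within the deciles, 4 in cells with at least 5000 UMIs, 2 with at least 500 UMIs, 1 with the mean CPM over cells and 0 with TMM factors or a prior of 5. From run 1 or run 2 alone 6 and 5 of 20 moved. The cause of these changes was not tested, apart from the stricter limits, which count fewer genes by construction. Within mesonephric mesenchyme, a split chosen after seeing the data, Igf1 turned to -0.58 in cluster 1 in the E11.5 KO and was at 0.72 in cluster 4 in the E11.75 KO, where the interval (-0.13 to 1.52) included 0. The type with the highest level was kept by 10 of 10 genes with the mean CPM over cells, and by 9 in cells with at least 5000 UMIs, where Igf1r moved to adrenosympathetic cells. With sites of 7 bases included, 8 genes in place of 4 held a site. Irs1, Irs2 and Insr rest on the fewest UMIs, which limits the precision of their ratios.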
